A study of Papio anubis with 40 samples.

Results

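The baseline libraries are the 8 plasma small-RNA libraries drawn before inoculation, at month 0, from 8 olive baboons (Papio anubis) that were later given menstrual tissue in the peritoneal cavity to induce endometriosis. They were chosen by their label of 0 months and are 8 of the 40 libraries analysed; the other 32 come from the same animals at months 3, 6, 9 and 15. The animals carry the labels PA8001, PA8003, PA8872, PA8873, PA8912, PA8914, PA8915 and PA8835. Each sample was 0.5 mL of plasma by its label, although the series' own description names serum, and every sample, also those drawn after inoculation, is labelled as untreated. The sources used here give neither age nor sex of the animals, and no animal without inoculation was sampled at the later months, so time since inoculation, ageing and storage cannot be told apart. Library numbers run baboon by baboon and by month within a baboon, so that animal and position in that order cannot be told apart either.

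MicroRNAs are short RNAs cut from hairpin precursors and loaded into Argonaute proteins, where they guide the repression of messenger RNAs. Each hairpin can give a mature strand from its 5' arm (5p) and another from its 3' arm (3p), of which usually 1 is kept. Those found in plasma are released by blood cells, by the vessel wall and by organs such as liver and muscle, and travel bound to proteins, in lipoproteins or in vesicles; red cells that break during the blood draw add their own. Roles named here are known from human or mouse. In such bulk plasma, more cells of a type releasing RNA and more RNA released per cell cannot be told apart.

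Baseline totals ran from 696873 counts in PA8873 to 2251643 in PA8914. Of the 2731 microRNA rows of the table, 689 had a count somewhere in the series and 505 had one at baseline. Between 266 (PA8001) and 371 (PA8915) rows had a count in a library, and thinning every library to 696873 counts left 265.7 to 363.1 rows. PA8914, the deepest library, had 339. Where a row had a count of 0, as many as 3 counts are possible, or 1.33 to 4.30 CPM at these depths. CPM is the count scaled to a fixed library total, itself corrected by TMM (trimmed mean of M-values), and shares are percentages of the unscaled total. The scaling factors ran from 0.762 in PA8001 to 1.35 in PA8835. No pair among the 28 pairs of baseline libraries was identical, and Spearman correlations across the 318 rows kept for testing ran from 0.859 (PA8001 with PA8915) to 0.952 (PA8872 with PA8915). PA8001 stood lowest by its mean correlation with the other libraries, 0.869, against 0.891 to 0.912 for the remaining animals.

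A few microRNAs made up most of the plasma profile. The 10 most abundant rows of a library held 73.7% ± 5.74 (SD, n = 8) of its counts, from 66.9% in PA8912 to 83.7% in PA8001. In PA8001 a single row held more than 50% of the counts, while 3 to 6 rows were needed in the other animals, and 17 to 28 rows held 90%. By mean CPM, 3 rows lay at or above 100000, 19 at or above 10000, 48 at or above 1000 and 127 at or above 100. At the other end, 209 of the 505 rows were counted in all 8 animals and 92 in only 1. A further 184 rows were counted only after month 0, the most abundant of them with 253 counts summed over the 32 later libraries.

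miR-16-5p, which is abundant in red cells and represses cell-cycle genes, came first with a mean of 18.8% ± 5.44 of the counts (SD, n = 8). Its shares ran from 7.78% in PA8001 to 25.1% in PA8914. On the CPM scale the lowest value was 102194, the median 158567 and the highest 323289, in the same pair of animals. It was the leading row in 6 animals. miR-122-5p, made almost only by hepatocytes, was the leading row in the other two, PA8001 and PA8003, and its shares spread far more widely. They were 0.969% in PA8872, 1.76% in PA8912, 1.79% in PA8915, 2.63% in PA8835, 4.09% in PA8873, 11.6% in PA8914, 20.7% in PA8003 and 52.9% in PA8001. The exact 95% Clopper-Pearson interval of the highest share is 52.8% to 53.0% and covers counting error only. Their mean was 12.1% ± 17.8, and without PA8001 it was 6.23%.

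miR-486-5p, an erythroid microRNA from an intron of the ankyrin-1 gene that muscle also makes, held rank 2 or 3 in every animal, at 11.1% ± 3.08. It ran from 6.95% in PA8001 to 16.6% in PA8914. On the CPM scale its lowest value was 71404 (PA8003), its median 90584 and its highest 213971 (PA8914), with PA8914 well above the other animals. miR-126-3p and miR-126-5p, both arms of a hairpin in the EGFL7 gene of endothelial cells, held 5.58% ± 2.34 and 2.93% ± 1.08. miR-126-3p was lowest in PA8914 at 36694 CPM, had a median of 43888 and was highest in PA8873 at 92465. miR-93-5p, of the miR-106b cluster in the MCM7 gene, held 2.80% ± 0.939.

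The let-7 family, which keeps differentiated cells from re-entering a growth programme, filled 4 of the first 10 places. let-7b-5p held 5.95% ± 2.43, the joined row let-7a-5p/7c-5p 5.10% ± 1.49, let-7g-5p 4.71% ± 1.65 and let-7f-5p 2.73% ± 0.683. A joined row cannot be divided between its members. All 8 let-7 rows, miR-98-5p included, were counted in every animal, and together they held 21.4% ± 5.72. let-7e-5p was the least abundant of them at a mean of 690 CPM, against 51675 for let-7b-5p. How well each sequence was ligated was not measured, so an order between rows is an order of counts and not of molecules in plasma.

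**Figure D1:**
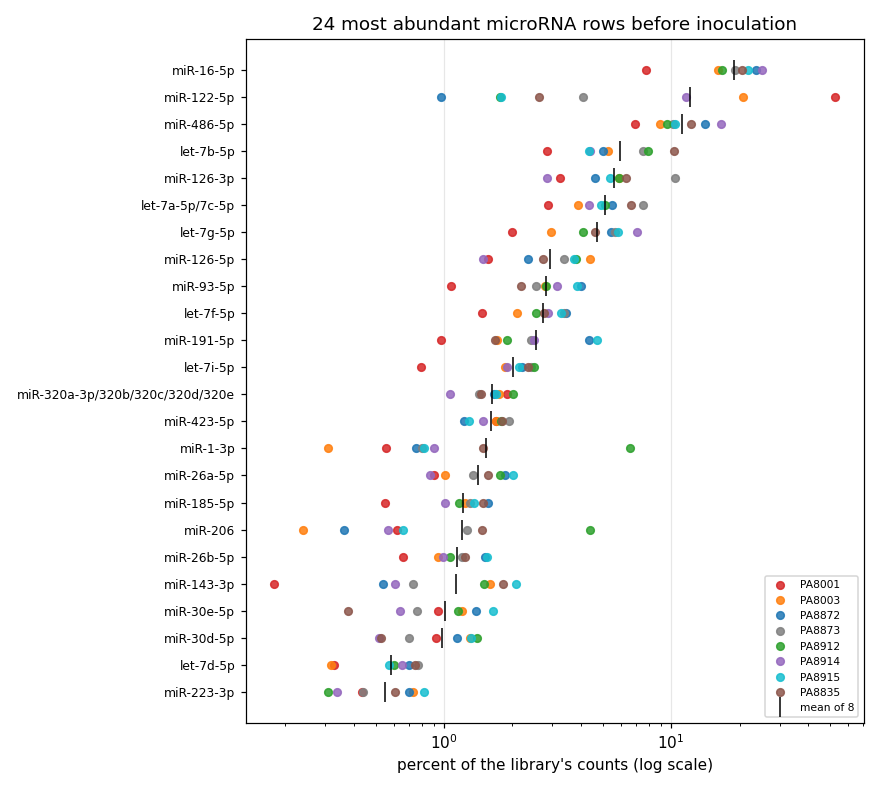
Share of each library's counts (percent, log scale) held by the 24 rows of highest mean share at baseline; each dot is 1 baboon and the bar is the mean of 8. miR-486-5p runs from 6.95% to 16.6%, whereas miR-122-5p runs from 0.969% to 52.9%, and PA8912 stands apart for miR-1-3p and miR-206.

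Lists of 19 groups of microRNAs, known for a cell type or a genomic cluster, were summed in each library. They hold 210 entries, all of which matched a row of the table. Rows on no list held 12.9% ± 2.57 of the counts. The defining rows of blood, vessel and liver, miR-451a, miR-486-5p, miR-223-3p, miR-126-3p and miR-122-5p, were counted in all 8 animals, as plasma is known to hold them. No list is restricted to a single cell type in every member, and shares in these lists are shares of counts, not of cells.

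Among the lists for blood cells and vessels, the broad red cell list, led by miR-16-5p, had the highest mean sum, 20.7% ± 5.87, close to that of the let-7 family. Its lowest sum was 8.61% in PA8001, its median 21.7% and its highest 26.5% in PA8914. The narrow red cell list held 11.6% ± 3.30, and 96.0% of that was miR-486-5p. The endothelial pair held 8.51% ± 3.09, from 4.34% in PA8914 to 13.8% in PA8873.

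The narrow red cell list also holds miR-451a, which the Argonaute-2 protein matures without Dicer and which fills red cells. It was far lower than miR-486-5p, with a lowest value of 475 CPM in PA8001, a median of 922 and a highest value of 5978 in PA8872. PA8872 and PA8915 (2955 CPM) lay above the other animals, which ended at 1572. miR-144-3p, made from the same transcript as miR-451a, ran from 593 CPM in PA8001 over a median of 1121 to 4428 in PA8914. Its highest animal was not the one highest for miR-451a. miR-144-5p was counted in 1 animal only, PA8872, with 4 counts.

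Haemolysis of a blood sample is often read from miR-451a relative to miR-23a-3p, whose plasma level changes little with haemolysis and which shares a row here with miR-23b-3p. The difference of their log2 CPM ran from -1.49 in PA8003 to 1.49 in PA8914, with a median of -0.29. The high index of PA8914 went with the lowest miR-23a-3p/23b-3p of the 8 animals, 337 CPM against a median of 1189, while its miR-451a of 947 CPM lay near the median. PA8872, with an index of 1.40, had the highest miR-451a. The same number thus stood for different profiles in these animals, and how much haemolysis contributed to either was not tested.

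White cell and platelet rows were present in every animal at lower sums. The platelet list held 3.23% ± 1.38, of which 80.2% was miR-191-5p. Its sums were highest in PA8915 (5.48%) and PA8872 (5.05%) and lowest in PA8001 (1.42%), and all 8 of its rows were counted in all animals. On the CPM scale its lowest sum was in PA8835 at 18448, with PA8001 at 18671. The myeloid list held 1.09% ± 0.361. It was led by miR-223-3p, a regulator of neutrophil maturation, at 4834 ± 1301 CPM, and by miR-142-5p, made in all blood lineages, at 3533 ± 1396 CPM. The lymphocyte list held 0.614% ± 0.297. Within it miR-155-5p, which activated lymphocytes raise, was even across animals at 1683 ± 331 CPM, whereas miR-150-5p, typical of mature resting lymphocytes, ran from 352 CPM in PA8912 over a median of 696 to 4077 in PA8915. PA8872 (3628 CPM) and PA8915 stood apart for miR-150-5p, and the remaining animals ended at 1023.

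Among solid tissues, liver and muscle had the largest sums, and each rested on a particular animal. The liver list held 12.1% ± 17.8, of which 99.96% was miR-122-5p. The other counted members were lower by far. miR-885-5p was at 148 CPM in PA8001 and at 4.75 to 17.5 CPM in the other animals. miR-192-5p/215-5p, shared by liver, gut and kidney, was also highest in PA8001, at 184 CPM against a median of 64.9.

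The muscle list held 2.75% ± 3.43, with 11.04% in PA8912 and 0.567% in PA8003; without PA8912 its mean was 1.57%. miR-1-3p, which promotes muscle differentiation in heart and skeletal muscle, had a lowest value of 2447 CPM in PA8003, a median of 7187 and a highest value of 50345 in PA8912. miR-206, which is restricted to skeletal muscle, ran from 1912 CPM in PA8003 over a median of 7738 to 33534 in PA8912. miR-499a-5p, from a myosin gene of slow and cardiac muscle, was at 74.4 CPM in PA8872, a median of 151 and 424 in PA8912. PA8912 was highest for all of these, and for the joined row miR-133a-3p/133b too, at 156 CPM. At the later months the muscle list of PA8912 had a mean of 3.10%, beside 1.26% to 3.04% in the other animals.

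The stromal list held 1.48% ± 0.856, led by miR-143-3p of smooth muscle at 9311 ± 4745 CPM. Its sum was lowest in PA8001 at 0.325% and highest in PA8835 at 2.49%. The pancreas list held 0.0735% ± 0.0623 and was almost only miR-375-3p, abundant in islet cells and also made in gut and other endocrine cells. It was lowest in PA8872 at 247 CPM, had a median of 478 and reached 1688 in PA8912, the animal that was also highest for muscle. The neural list held 0.0867% ± 0.0299, mostly miR-128-3p. miR-124-3p, the defining neuronal member, was counted in only 2 of 8 animals.

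Epithelial, ciliated-cell, and liver and gut lists held 0.0295% ± 0.0214, 0.0270% ± 0.0199 and 0.0131% ± 0.00695. In the ciliated list, the joined row miR-449a/449b-5p, from hairpins that act in multiciliated cells, was at 82.5 CPM in PA8001, a median of 148 and 394 in PA8835. The DLK1-DIO3 list, a large imprinted cluster expressed from the maternal chromosome, held 0.247% ± 0.0699, and 30 of its 47 rows were counted at baseline. It ran from 0.154% in PA8914 to 0.368% in PA8003.

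The placental and embryonic lists were close to empty. Of 31 rows of the chromosome 19 cluster C19MC, which the primate placenta expresses, 1 was counted: miR-517c-3p had 6 counts, all in PA8912. Of the 8 embryonic stem cell rows 3 were counted. miR-373-3p and miR-372-3p of that list were not evenly absent. miR-373-3p was at 46.4 CPM in PA8003, 41.2 in PA8914 and 24.0 in PA8915, at 14.0 in PA8872, at 4.89 in PA8912, at 3.96 in PA8835 and at 0 counts in PA8001 and PA8873. miR-372-3p was at 41.2, 26.9 and 30.1 CPM in PA8003, PA8914 and PA8915, at 9.28 or less in the other animals, and at 0 counts in PA8001 and PA8835.

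**Figure D2:**
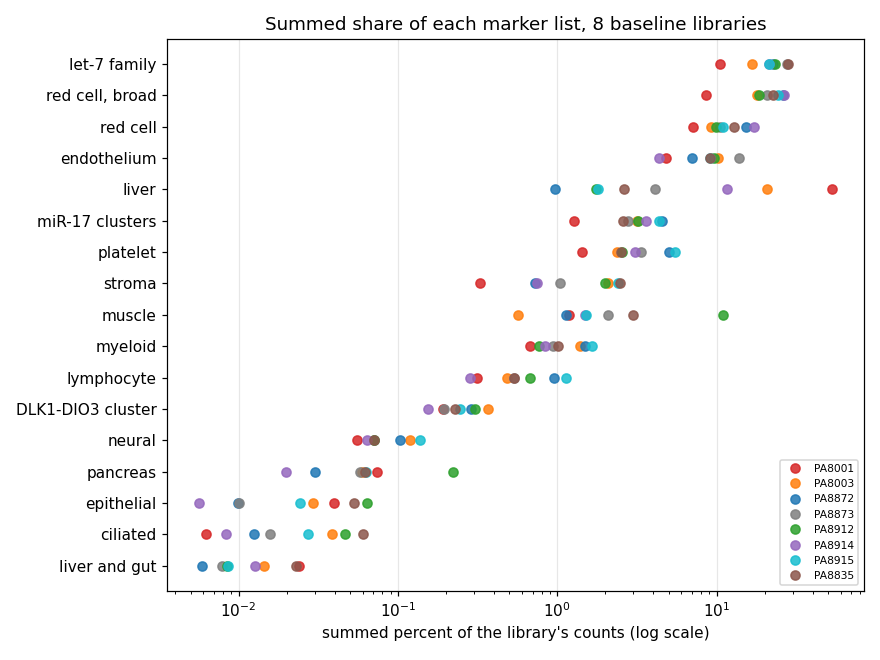
Summed share of counts (percent, log scale) for 17 lists at baseline, each dot 1 baboon; the placental and embryonic lists, at 0 in several animals, are not drawn. PA8001 is highest for liver (52.9%) and lowest for let-7 (10.4%), and PA8912 is highest for muscle (11.04%) and pancreas (0.221%). Shares of a library are parts of the same total. On the CPM scale let-7 was lowest in PA8003 at 132841, with PA8001 at 137068.

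The spread between animals was measured as the SD of log2 CPM (prior count 2) over the 8 libraries, for the 127 rows with a mean of at least 100 CPM. Its median was 0.54 on the log2 scale, with 10% of rows under 0.30 and 10% over 1.21. Counting error alone gives a median of 0.053 on that scale. These rows were ranked by that value, which is therefore given as a description without a test.

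The 10 steadiest rows had SDs of 0.13 to 0.30, and the next outside them was miR-26b-5p at 0.30. miR-628-3p came first with an SD of 0.13. It had a lowest value of 126 CPM in PA8003, a median of 144 and a highest value of 159 in PA8915, and counting error alone gives it an SD of 0.11. No animal stood apart. miR-151a-3p, from an intron of the PTK2 gene, ran from 309 CPM in PA8872 over a median of 375 to 473 in PA8873, with an SD of 0.19. miR-130b-3p (SD 0.21) and miR-324-5p (SD 0.21) followed at means of 225 and 134 CPM. miR-30e-3p was at 1552 ± 256 CPM with an SD of 0.24.

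miR-185-5p was the most abundant of the 10, at 10567 ± 1939 CPM and an SD of 0.28, with its lowest value in PA8001 (7210 CPM) and its highest in PA8914 (12962 CPM). The remaining members were miR-340-5p, miR-381-3p, miR-28-3p and miR-29b-3p. Of the 10, miR-151a-3p and miR-28-3p are on the platelet list, miR-185-5p on the broad red cell list and miR-381-3p on the DLK1-DIO3 list. The others are on no list. Steadiness depended on the scaling. With upper-quartile factors 6 of these 10 stayed among the 10 steadiest, and with library totals alone none did.

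The 10 most variable rows had SDs of 1.28 to 4.11, and the next outside were miR-206 at 1.27 and miR-1-3p at 1.24. The first 5 were at 0 in at least 1 animal and high in others. miR-24-3p had 4462 counts (3339 CPM) in PA8003 and 0 in the other 7 animals. Over the series it had 0 in 27 of 40 libraries and at least 1597 counts wherever it was counted. It is encoded in the same clusters as miR-23a, miR-23b, miR-27a and miR-27b, yet the rows miR-23a-3p/23b-3p and miR-27a-3p/27b-3p were counted in all 8 animals. The last of these rows was looked up after the values were seen.

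miR-652-3p was at 0 in PA8003 and between 464 and 775 CPM in the other 7 animals, over which its SD was 0.23, below the median row. miR-376a-3p/376b-3p was at 0 in PA8835 and between 31.1 and 273 CPM elsewhere. miR-145-5p, a smooth muscle microRNA, was at 0 in PA8001 and ran from 59.5 CPM to 455 (PA8915) elsewhere, with an SD of 0.92 without PA8001. miR-196a-5p was likewise at 0 in PA8001 and ran from 52.4 to 294 CPM elsewhere, with an SD of 0.80. A count of 0 in PA8001 allows up to 2.86 CPM. The SD over all 8 animals for such rows depends on the prior count, and why these rows are at 0 was not tested.

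At lower levels miR-326-3p was likewise either at 0 or well counted. It had 83 counts in PA8912, 40 in PA8873 and 0 in the other 6 animals. Over the series it was at 0 in 30 of 40 libraries and had at least 36 counts in the remainder. miR-760 was at 0 in 3 animals and had 54 to 148 counts in the other 5. miR-6891-5p was at 0 in 4 animals and had 27 to 141 counts in the other 4. miR-1260a/1260b had 85 counts in PA8872, 17 in PA8873 and 0 in the other 6 animals. miR-372-3p and miR-373-3p, described above, were each at 0 in 2 animals, with low counts in others. These rows, with at least 50 CPM in 1 animal and 0 counts in 2 or more, were chosen after their values were seen. For this choice alone, CPM was taken on the unscaled total, without the TMM correction. On that scale the highest values were 51.6 for miR-372-3p, 58.2 for miR-373-3p and 51.7 for miR-1260a/1260b.

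The other variable rows were graded. miR-122-5p had an SD of 2.27. miR-483-5p, from an intron of the insulin-like growth factor 2 gene, was at 66.9 CPM in PA8872, a median of 193 and 2752 in PA8001. miR-193b-5p ran from 43.4 CPM in PA8872 over a median of 103 to 783 in PA8001. Each of these was thus highest in PA8001 and lowest in PA8872. miR-150-5p (SD 1.36) and miR-30b-5p/30c-5p (SD 1.28) had another order. miR-30b-5p/30c-5p was at 43.5 CPM in PA8914, a median of 128 and 469 in PA8872, with PA8915 next at 390.

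By list, all 7 stromal rows and all 3 muscle rows above 100 CPM lay over the median SD of 0.54, as did 3 of 4 narrow red cell rows. Of 6 platelet rows 1 did, of 2 endothelial rows 0, of 8 let-7 rows 2 and of 4 myeloid rows 1.

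**Figure D3:**
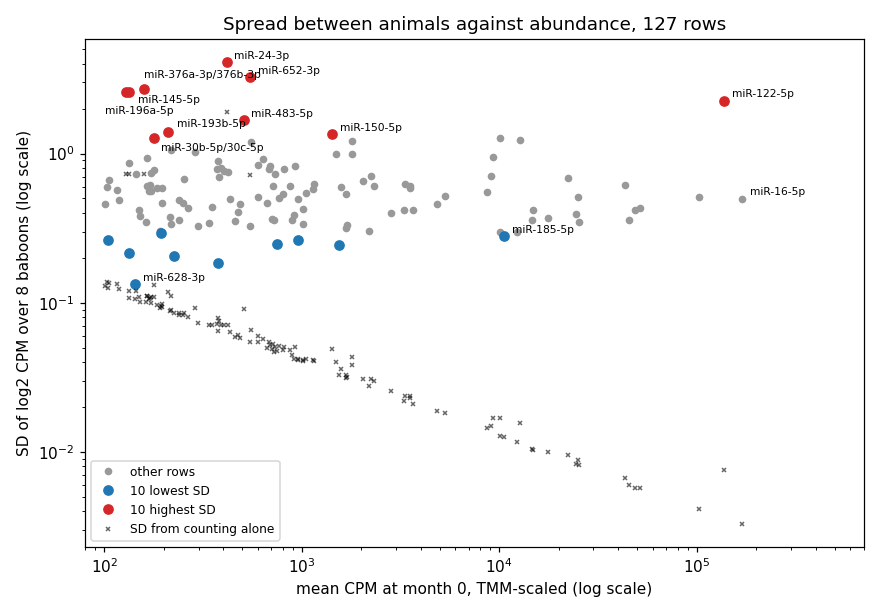
SD of log2 CPM over the 8 baboons (log scale) against mean CPM at baseline (log scale) for 127 rows; blue are the 10 lowest and red the 10 highest SDs, and crosses are the SD that counting alone gives. Each of the 127 rows lies above its own cross, miR-122-5p is variable at an abundance second to miR-16-5p, and miR-628-3p comes close to counting error.

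The later libraries of the same animals, which the ranking did not use, gave a second measure of this spread. Of the 10 most variable baseline rows, 10, 9, 10 and 9 lay over the median SD of the 127 rows at months 3, 6, 9 and 15. Of the 10 steadiest, 9, 9, 7 and 7 lay under it. The steadiest rows had median SDs of 0.37 to 0.48 in those months, above their baseline values. Across the 127 rows, SDs at baseline and at a later month had Spearman correlations of 0.71, 0.61, 0.64 and 0.52. The animals are the same throughout, so these are not independent animals.

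Whether rows differ between animals was tested in the 32 later libraries with edgeR's quasi-likelihood F test (month as a term, Benjamini-Hochberg adjustment over 318 rows). It called 74 of 318 rows at an adjusted p under 0.05, or 23.3% of those tested. Of the 127 rows above 100 CPM at baseline 49 were called, or 38.6%. Of the 10 most variable 3 were called and of the 10 steadiest 1, miR-185-5p at an adjusted p of 0.0484 in edgeR. Without the libraries of PA8914 the count was 34, and DESeq2 called 123. Each baboon is 4 libraries here, so the test speaks of these animals.

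The most significant row was miR-449a/449b-5p with an edgeR adjusted p of 4.56e-05, highest in PA8835 at baseline (394 CPM) and also later (mean 328 CPM). miR-483-5p followed with an edgeR adjusted p of 5.47e-05, highest in PA8001 both times. miR-122-5p had an edgeR adjusted p of 0.00025. Its later means were 890108 CPM in PA8001 and 231476 in PA8003, and the lowest was 13212 in PA8872, as at baseline. PA8835 changed place, from 19409 CPM at baseline to a later mean of 137026. That mean rested on month 9, when the miR-122-5p share in PA8835 was 34.2%, beside 3.75% to 6.07% at the other later months. In PA8001 the share also varied, from 10.6% at month 15 to 78.6% at month 9.

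miR-373-3p had an edgeR adjusted p of 5.47e-05 and miR-372-3p of 0.00086. Their later means were again highest in PA8003, PA8914 and PA8915, at 41.6 to 63.3 CPM for miR-373-3p and 24.0 to 25.6 for miR-372-3p. In PA8001 they were 1.28 and 0 CPM. They were the 2 tested rows of the embryonic list, and both passed the test.

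let-7g-5p had an edgeR adjusted p of 0.000104 and was highest in PA8914, at 90806 CPM before inoculation and 100913 later, against a baseline median of 39233. It was 1 of 6 let-7 rows called of 8. The remaining rows of the 10 smallest p were miR-187-3p, miR-146b-5p, miR-550a-3-5p/550a-5p/550b-2-5p, miR-877-5p and miR-100-5p. Over all tested rows 23.3% were called. By list, 2 of 3 tested liver rows, 2 of 2 liver and gut rows, 2 of 4 narrow red cell rows, 1 of 2 ciliated-cell rows and 3 of 7 neural rows were called. Shares nearer to that of all rows were 8 of 27 in the DLK1-DIO3 list, 2 of 7 in the miR-17 clusters and in the broad red cell list, 3 of 11 in the stromal list, 2 of 8 in the platelet list, 1 of 5 in the myeloid list, 1 of 6 in the epithelial list and 1 of 7 in the lymphocyte list. None of 5 muscle rows, 2 endothelial rows or 1 pancreas row was called. No difference between lists was tested.

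miR-1-3p and miR-206, so high in PA8912 before inoculation, had edgeR adjusted p-values of 0.763 and 0.718 between animals later. PA8912's later means were 15020 and 10413 CPM for them. miR-451a, highest in PA8872 at baseline, had a later mean there of 1383 CPM, below the 3077 CPM of PA8912, with an edgeR adjusted p of 0.0317 between animals.

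**Figure D4:**
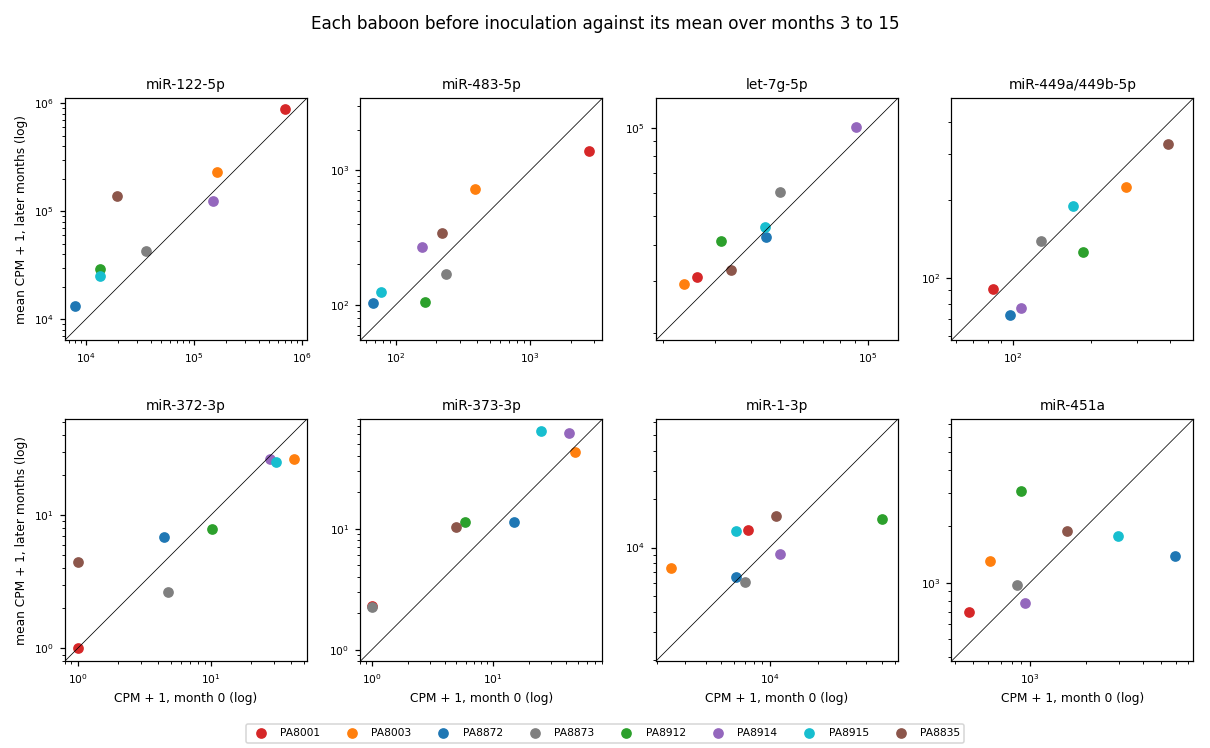
CPM + 1 at baseline (x, log scale) against the mean over the 4 later months (y, log scale) for 8 rows, each dot 1 baboon, with the line of equality. For miR-122-5p, miR-483-5p, let-7g-5p, miR-449a/449b-5p, miR-372-3p and miR-373-3p PA8001, PA8001, PA8914, PA8835, PA8003 and PA8003, in that order, are highest at baseline, while PA8912 for miR-1-3p and PA8872 for miR-451a lie far below the line.

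Baseline profiles were compared with the later profiles of each animal. Deviations from the mean of the month, across 318 rows, correlated with those of the same baboon's later mean at a mean r of 0.30 and with those of other baboons at -0.04. An exact permutation test over all pairings of 8 libraries with 8 baboons (one-sided) gave p = 0.000124. The correlation was highest with the own baboon for 5 of 8 animals. It was strongest for PA8914 (r = 0.52) and PA8001 (r = 0.46). PA8912 had an own r of -0.08, the lowest of the 8. Without miR-122-5p the mean was 0.28 (exact permutation p = 0.000223). Position in library order moves with baboon and cannot be told apart from it.

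Over the 122 rows above 100 CPM that had no library at 0 among high ones, the animal highest at baseline was also highest by later mean in 40 rows, and the lowest was also lowest in 59. An animal picked at random from the 8 would match in 1 of 8 rows on average. Rows of a library share its scaling and are not independent, and this match was not tested. PA8914 was highest in 25 rows and kept that place in 17. PA8915 was highest in 18 and kept it in 1. PA8912 was highest in 15 and kept it in 3. Of the lowest places PA8914 kept 15 of 17, PA8835 13 of 23, PA8912 1 of 12 and PA8915 1 of 7.

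The last comparison set baseline against the later months of the same animals. edgeR, with baboon as a term, called 1 of 318 rows (0.314%) between month 0 and the mean of the later months, and 17 had an unadjusted p under 0.05. No row was called higher at month 0. miR-210-3p, which low oxygen induces, was lower at month 0, at 151 ± 38.5 CPM (SD, n = 8) against a later mean of 277, in 8 of 8 animals. Its log2 difference was -0.86 (SE 0.20, edgeR adjusted p = 0.0383). It lost the call with upper-quartile factors, with library totals, with limma-voom, without a filter on low counts and without any of 4 animals, PA8001, PA8872, PA8914 or PA8835. Over all alternatives its adjusted p ran from 0.00163 (DESeq2) to 0.592 (edgeR with library totals). The median log2 difference over all 318 rows was -0.08.

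Of the 18 lists with a tested row, the median log2 difference was highest for the 2 ciliated-cell rows at 0.77, followed by the lymphocyte rows at 0.31 and the epithelial rows at 0.20, and lowest for the 3 liver rows at -0.30, the 2 endothelial rows at -0.28 and the 2 liver and gut rows at -0.25. No row of any list was called. None of 5 library measures passed an exact sign-flip permutation test over the 8 animals. The smallest p was that of depth: the log2 total count at month 0 minus later was -0.47, lower at month 0 in 6 of 8 animals (exact p = 0.0547, adjusted 0.273 over the 5 measures). The other differences are also month 0 minus later. The haemolysis index differed by 0.28 (exact p = 0.484). The number of rows at a common depth was lower at month 0, 327.7 against 344.7 (exact p = 0.141). The share of the 10 highest rows was 73.7% at month 0 and 74.9% later (exact p = 0.203), and that of miR-122-5p was 12.1% and 12.8% (exact p = 0.648).

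Arm use was compared within each library as log2 of 5p over 3p counts (with 0.5 added to each), for 91 hairpins whose arms have rows of their own and a summed mean of at least 100 CPM. The 5p arm was the higher in 59 hairpins (64.8%) and the 3p arm in 30 (33%), by an exact sign-flip permutation test over the 8 animals with adjustment over the 91. The smallest p such a test can give with 8 animals is 0.0078, which becomes 0.00817 after adjustment. Most hairpins were strongly one-sided, and 74 of 91 had a mean ratio beyond 4 on the log2 scale. The 3p arm had no count in any animal for 19 hairpins and the 5p arm for 7.

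The hairpins furthest to the 5p side were let-7g, miR-122, miR-26b, miR-185 and let-7i. let-7g had 541657 counts from the 5p arm over the 8 libraries and none from the 3p arm, so that its 5p arm was at least 180552-fold higher, against a floor of 3 counts over the group. miR-122 had 1163266 counts from 5p and 9 from 3p. miR-26b gave an at least 41938-fold higher 5p arm, miR-185 had 130283 against 16 counts and let-7i 218840 against 33.

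Furthest to the 3p side were miR-1, miR-143, miR-29a, miR-144 and miR-375. miR-1 had 177479 counts from the 3p arm and none from the 5p arm, at least 59160-fold higher. miR-143 was at least 40157-fold, miR-29a at least 8502-fold and miR-375 at least 2605-fold higher from the 3p arm. miR-144 had 23311 counts from 3p and 4 from 5p. All of these are tissue microRNAs of muscle, stroma, red cells or endocrine cells, apart from miR-29a, which represses collagen genes in many tissues.

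A few hairpins, singled out after their values were seen, gave both arms in quantity. miR-425 was closest to balance, with 42.0% to 62.0% of its counts from the 5p arm, a mean log2 ratio of 0.17 ± 0.33 (SD, n = 8) and no call (exact permutation, adjusted p = 0.195). miR-126 gave 24.4% from 5p in PA8873 and 42.8% in PA8003, with the 3p arm higher in all 8 animals. miR-9 gave 12.8% to 30.8% from 5p and miR-223 8.80% to 17.7%. On the other side, miR-424 gave 55.7% to 85.4%, miR-30a 66.4% to 83.2%, miR-30e 71.0% to 90.1% and miR-142 80.8% to 90.9% from 5p. Apart from miR-425, these hairpins had the same favoured arm in all 8 animals.

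The other hairpin without a call, miR-652, had a mean log2 ratio of -3.02. Its 3p arm was at 0 in PA8003 and the higher arm in the other 7 animals. miR-145, with its 5p arm at 0 in PA8001, was called at an adjusted p of 0.0479 (exact permutation). At the later months 90 of 91 hairpins had a mean ratio of the same sign as at baseline. The exception was miR-425, with a later mean of -0.09.

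**Figure D5:**
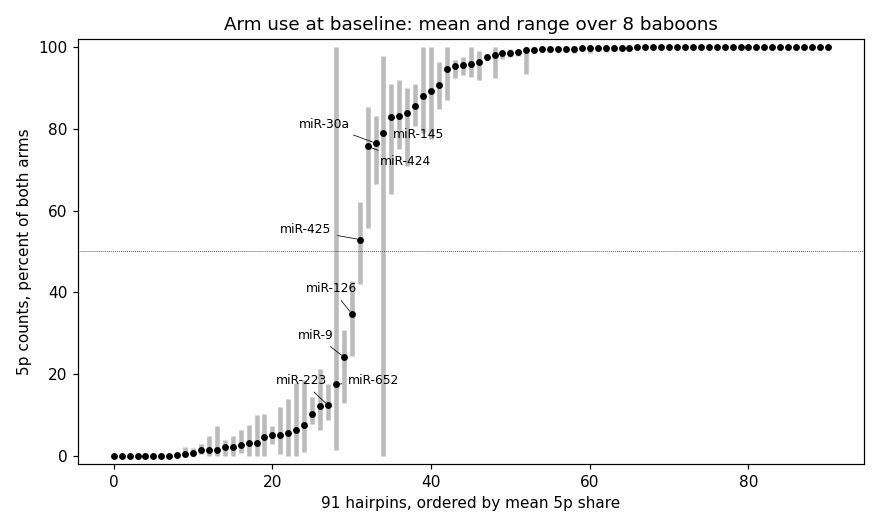
Percent of counts from the 5p arm for 91 hairpins ordered by their mean over 8 baboons; the dot is the mean, the grey bar the lowest to highest animal and the dotted line equal use. Most hairpins lie at either end, miR-425 and miR-126 lie between, and the wide bars of miR-652 and miR-145 come from libraries in which 1 arm is at 0.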

How the data were processed

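Small RNA from 40 plasma samples was sequenced on an Illumina NovaSeq X after sequential adapter ligation with molecular identifiers, per the labels' protocols. The authors deposited raw counts, a whole number for each microRNA name in each of the 40 libraries, with 0 columns left unused. It is not stated whether reads or molecular identifiers were counted, and the sources used here give neither aligner nor microRNA database. The submitters' processing notes name R 4.5.0, edgeR and limma. Names are human microRNA names, and no coordinates are given. The blood was drawn from the same 8 animals each time, so p-values over libraries speak of these animals.

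Counts were scaled with TMM factors over the 40 libraries and kept with filterByExpr (minimum count 10, minimum total 15, by month), which left 318 rows holding 99.97% of baseline counts, 21 of them joined names. Tests used edgeR 4.0.16 (quasi-likelihood), limma 3.58.1 and DESeq2 1.42.0 in R 4.3.3, with Benjamini-Hochberg adjustment and a threshold of 0.05, and exact permutation tests in Python 3.11.15. Tests are two-sided unless stated. All-zero arms were bounded with 3 counts over the group. Both fits were run on simulated data (5 sets, 200 of the rows changed before filtering, 318 rows fitted). The month 0 fit recovered 23.9% of 1.5-fold, 59.0% of 2-fold and 88.2% of 4-fold changes, with 1.46% of calls false. The baboon fit recovered 7.36%, 35.0% and 75.2%, with 2.59% false. For the baboon fit, changed rows were shifted in a fixed group of several baboons together. Rows in which a single animal stands apart were not simulated. The simulated spread was estimated with month as the only term, so differences between baboons are part of its noise. Rates for the fits to the real counts can therefore differ from these.

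Same-numbered samples are the same baboon, so the month 0 fit has the baboon as a block. Rows are named by rule: the 10 highest by mean CPM, the 10 steadiest and 10 most variable, up to 4 leading members of each list, the 5 hairpins at either end of the arm ratio, rows that are all or none, miR-451a and miR-23a-3p, and the 10 smallest p of each fit. The libraries, the lists and these rules were chosen with earlier results of these data known. Alternatives were other scalings, prior counts, minimum levels and filters, DESeq2, limma-voom, no block, and leaving out each animal.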

Additional observations from a re-analysis of the deposited data

Results flagged for a closer look

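Of 121 baseline values checked for a library standing apart (Dixon's test at 95%), 18 were. Chance alone passes this test in about 1 of 20 values that were not picked by their spread. The values checked here include rows picked for a high spread over these same libraries. That rate does not hold for such rows, so the 18 cannot be read against it. Values below are log2 CPM unless stated, and no cause was tested.

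PA8001 gave 9 of them. It was high for miR-483-5p at 11.43 (other animals 6.09 to 8.59), for miR-885-5p of liver at 7.22 (2.54 to 4.21) and for miR-203a-3p, a skin epithelium microRNA, at 8.69 (2.62 to 4.495), and its miR-122-5p share was 52.9% (0.969% to 20.7%). At the later months its mean miR-203a-3p was 3.84 CPM. It was low for miR-145-5p, miR-196a-5p and miR-200c-3p, each with a count of 0 and a log2 CPM of 0.081. Its log2 percent was low for the broad red cell list at 3.11 (4.16 to 4.73) and for the miR-17 clusters at 0.35 (1.37 to 2.18), both shares of the same total as its miR-122-5p.

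PA8003 was high for miR-24-3p at 11.71 and low for miR-652-3p at 0.081, a count of 0. PA8835 was low for miR-376a-3p/376b-3p at 0.081, also a count of 0, and for miR-30e-5p at 11.44 (12.72 to 13.61). PA8914 was high for miR-486-5p at 17.71 (16.12 to 16.83) and miR-106b-5p at 8.83 (6.99 to 7.70). PA8873 was high for miR-126-3p at 16.5 (15.16 to 15.52). PA8912 was high for miR-141-3p at 7.00 (3.77 to 5.23), an epithelial microRNA, and its log2 5p/3p ratio of miR-375, whose 5p arm has no count, was lowest at -12.75 (-11.00 to -9.65).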

How the results depend on the processing

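No called result changed direction; the month 0 difference in miR-122-5p share, which was not called, ran from -1.98 to 0.492 percentage points without 1 animal. Of the values for single named rows and hairpins, 926 stayed within their spread or on their side of the threshold, 20 moved beyond it, 41 gained and 15 lost a call. Of the values for the main results, 184 stayed and 35 moved. Shares of the leading rows, the 10 rows of highest mean CPM, the median spread and the library measures stayed within 1 SD or their side of the threshold under each alternative run. Of the 10 steadiest rows, 6 were shared with upper-quartile factors, 0 with library totals alone, 2 at a minimum of 1000 CPM, and 5 to 10 without 1 animal. Of the 10 most variable, 2 were shared at 1000 CPM and 6 to 10 without 1 animal, the lowest without PA8001. At a minimum of 10 CPM, 90 hairpins had 5p and 48 had 3p higher, since more hairpins were tested. Between baboons, DESeq2 called 123 rows, and leaving out 1 animal gave 34 (PA8914) to 90. Calls among the 10 steadiest were 3 with upper-quartile factors, 2 with DESeq2 size factors, 5 with library totals, 5 with DESeq2, 3 with limma-voom and 0 to 4 without 1 animal. Calls among the 10 most variable were 7 with library totals, 9 without a filter, 7 with DESeq2 and 3 to 5 without 1 animal. Rows lower at month 0 were 0 with upper-quartile factors, library totals and limma-voom, 2 with DESeq2 and 0 to 1 without 1 animal; 1 row was higher without a filter. Without the replicate block 1 row was higher. These causes were not tested. Depth limits rows under about 4.30 CPM.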
